A study of Mus musculus with 12 samples.

Results

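The 219 genes described here are expressed members of the Zfp family, the mouse genes whose symbols start with Zfp and a number because their products carry zinc fingers. They were taken from the 18194 genes named on an expression array. Zfp352, Zfp42 and the Zfp36 group were left out by name, which removed 9 genes, and 327 Zfp genes remained. Each gene was read from its probe set with the highest mean over all arrays, and it was kept where log2(intensity + 1), called the log2 level here, reached 5 on at least 2 of 12 arrays. The 108 Zfp genes under that level are not described, so no statement here covers the family as a whole. Just inside the level lay Zfp57, Zfp112 and Zfp866, whose second highest arrays read 5.003, 5.01 and 5.07, and just outside it lay Zfp119a and Zfp213, each with 4.97, and Zfp626 with 4.95. Measured levels on these arrays thus chose the members, and 15 of the 219 reached a level of 5 on nothing but the 2 arrays of a single group, which was U0126 day 2.5 for 4 of them, control day 1.5 for 9 and control day 3.5 for 2. Such genes had to differ between groups. The 9930 genes of the whole array that passed the same filter give the background of every count. How many of these reached the level in a single group was not counted.

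The embryos were of the ICR strain, an outbred mouse stock, and carried no stated mutation. One group held embryos treated with 20 µM U0126, which blocks the kinases that activate ERK, and collected at day 2.5, when the series' text describes them as arrested with 4 cells. A further pair of groups had been released from that arrest and was collected at day 3.5, described as 8-cell embryos, and at day 4.5, described as morulae to blastocysts. Untreated controls were taken at 3 ages: day 1.5, when they had 2 cells, day 2.5, with 4 to 8 cells, and day 3.5, as morulae to blastocysts. Each group had 2 arrays, made from amplified RNA of embryos whose number is not given in the labels, and the series' text speaks of 2 experiments. Whether the replicates came from separate matings or cultures is not stated in the labels, so the p-values measure only how far these samples differed, which can be technical spread. Fewer cells with a transcript and less of it per cell cannot be told apart in such bulk RNA.

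Most Zfp genes encode proteins with a row of C2H2 fingers, each of which holds a zinc ion and reads a few bases of DNA. Many also carry a KRAB domain, which recruits Trim28 and through it Setdb1, HP1 proteins and DNA methyltransferases, and such proteins silence retroelements and guard the methylation of imprinted loci in early embryos. Others have no KRAB domain and work as partners of chromatin complexes, as RNA-binding proteins, as ubiquitin or SUMO ligases or at the spindle. The embryo depends on stored maternal transcripts until its own genome is activated, which in the mouse happens mainly at the 2-cell stage.

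The replicate arrays of a group correlated over the 219 genes with r between 0.931 and 0.964. The defining markers of cumulus and granulosa cells (6 on the array), sperm (3) and blood (3) stayed under a log2 level of 5 on every array. Of 3 oviduct markers, Ovgp1 passed the filter and read highest, 6.35, on replicate 2 of U0126, against 3.90 to 5.75 on the other arrays. The trophectoderm markers Cdx2, Krt8 and Krt18 were all under 5 at control day 1.5 and all above it at control days 2.5 and 3.5.

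The probe sets of the Zfp genes had a median log2 level of 6.18, against 7.12 for those of all tested genes. Their group means spanned a median of 1.89 log2 units, against 2.05 for all tested genes. The widest span belonged to Zfp616 with 4.87 log2 units, and the narrowest to Zfp112 with 0.31. More of the genes had their highest group mean at control day 1.5 than in any other group, 80 of 219 or 36.5%, against 30.7% of all tested genes. U0126 day 2.5 was the highest group for 48 genes, or 21.9% against 16.5% of all tested genes. Released day 4.5 was the highest group for 21, or 9.59%, where all tested genes gave 23.5%. These shares are descriptions, since the filter used the same levels. In all, 158 of the 219 genes passed the test described next in at least 1 of 7 comparisons and 61 in none.

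**Figure D1:**
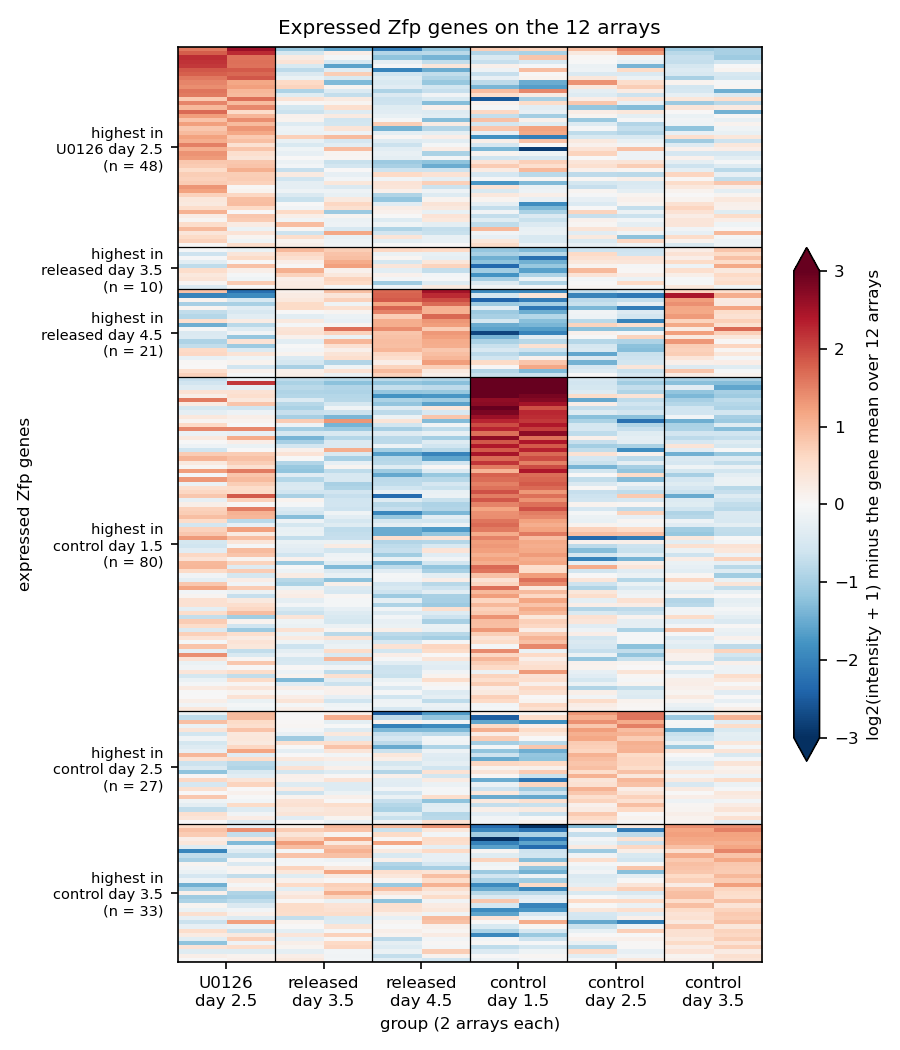
Log2 level of each of the 219 expressed Zfp genes on the 12 arrays, as the difference from the gene's own mean over the arrays (colour, log2 units; red is higher), with 2 columns for each group and the genes grouped by the group in which their mean was highest. The largest blocks are the 80 genes highest at control day 1.5 and the 48 highest under U0126 at day 2.5.

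All 9930 genes were tested together with limma on the 6 groups, with Benjamini-Hochberg adjustment over all of them, and a gene was called changed at an adjusted p under 0.05. In the step from the 2-cell stage to 4 to 8 cells, 67 Zfp genes fell at control day 2.5 and 39 rose, relative to control day 1.5. That was 30.6% lower against 27.4% of all tested genes, and 17.8% higher against 28% of all tested genes. Among genes with a mean level of at least 7, 34.6% of Zfp genes fell against 22.9% of tested genes and 21.8% rose against 36.5%, while under that level 28.4% fell against 32.3% and 15.6% rose against 18.9%. The share that rose was thus below the background in both ranges, and the share that fell was above it in one and below it in the other. The median difference was −0.12 for the Zfp genes and 0.09 for all tested genes.

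The largest falls brought transcripts of the 2-cell embryo to readings under 5. Zfp735 read 3.48 and 3.19 on the control day 2.5 arrays, against 7.91 and 7.65 at control day 1.5, and stayed between 3.02 and 3.74 on all 8 other arrays. Its difference was −4.45 ± 0.25 (SE, n = 2 per group, limma adjusted p = 4.03e-07), or a fall of at least 2.78 counted from a level of 5. Zfp616 read 3.79 and 3.33 against 7.58 and 8.40, Zfp946 read 4.40 and 4.21 against 8.28 and 8.59, and Zfp957 read 3.81 and 3.30 against 7.69 and 7.44. Their falls were at least 2.99, 3.44 and 2.57 when counted from a level of 5. The calls of these 4 genes were kept whichever single array was left out. However, Zfp735, Zfp946 and Zfp957 reached a level of 5 on the control day 1.5 arrays alone, so the filter itself fixed that they differ there, and their gaps are descriptions. Of the 67 genes that fell, 26 read under 5 on both control day 2.5 arrays, where the size of a fall rests on signal near background.

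The rises of this step included genes above a level of 5 on both days. Zfp568, which represses a placental transcript of Igf2, read 11.25 and 11.004 at control day 2.5, against 8.34 and 8.07 at control day 1.5, a rise of 2.92 ± 0.27 (limma adjusted p = 7.74e-06). Zfp110, known as a partner of a neurotrophin receptor, read 9.44 and 9.996 against 6.06 and 7.34 (3.02 ± 0.41, adjusted p = 1.11e-04). Zfp729a and Zfp81 rose by 2.74 and 2.52 and had been under 5 on both day 1.5 arrays, so that counted from 5 their rises were at least 1.82 and 1.66.

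In the next control step, to the morula and blastocyst at day 3.5, 32 Zfp genes rose and 14 fell relative to control day 2.5. Those were 14.6% and 6.39%, close to the 13.4% and 8.28% of all tested genes. When each array was centred on its median, the counts turned to 17 higher and 25 lower, and with the replicate number as a block 24 were lower. The balance of rises and falls in this step therefore depended on the centring of the arrays, and the number of falls also on the block. Without single arrays, 13 and 8 genes rose when replicate 1 or 2 of control day 2.5 was left out, and 7 and 17 when replicate 1 or 2 of control day 3.5 was left out. The falls numbered 8 without replicate 1 of control day 2.5 and 5 without replicate 1 of control day 3.5.

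Zfp931 showed the largest rise. It read 7.87 and 6.50 at control day 3.5, against 3.42 and 3.27 at control day 2.5, a rise of 3.84 ± 0.44 (limma adjusted p = 5.22e-04) or of at least 2.18 counted from 5. Zfp692 read 6.10 and 6.12 against 3.58 and 2.87, and Zfp280c, a relative of a Drosophila insulator protein, read 6.43 and 6.11 against 3.78 and 4.01. Zfp105 also passed, with 7.65 and 7.98 against 6.51 and 4.42, but its arrays at day 2.5 lay far apart. The Zfp105 call was lost without replicate 2 of control day 2.5 (adjusted p = 0.0915), replicate 1 of control day 3.5 (0.0757) or replicate 2 of control day 3.5 (0.0747), and with no level filter (0.0552). Among the falls, Zfp644, a partner of the histone methyltransferases G9a and GLP, read 7.90 and 8.00 against 9.91 and 10.47 (−2.24 ± 0.39, adjusted p = 0.00359). Zfp296 read 9.87 and 10.86 against 12.58 and 12.25 (−2.05 ± 0.36, adjusted p = 0.00332). Zfp672 and Zfp707 fell by 1.85 and 1.69. These 4 calls, and those of Zfp931, Zfp692 and Zfp280c, were kept whichever array was left out.

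**Figure D2:**
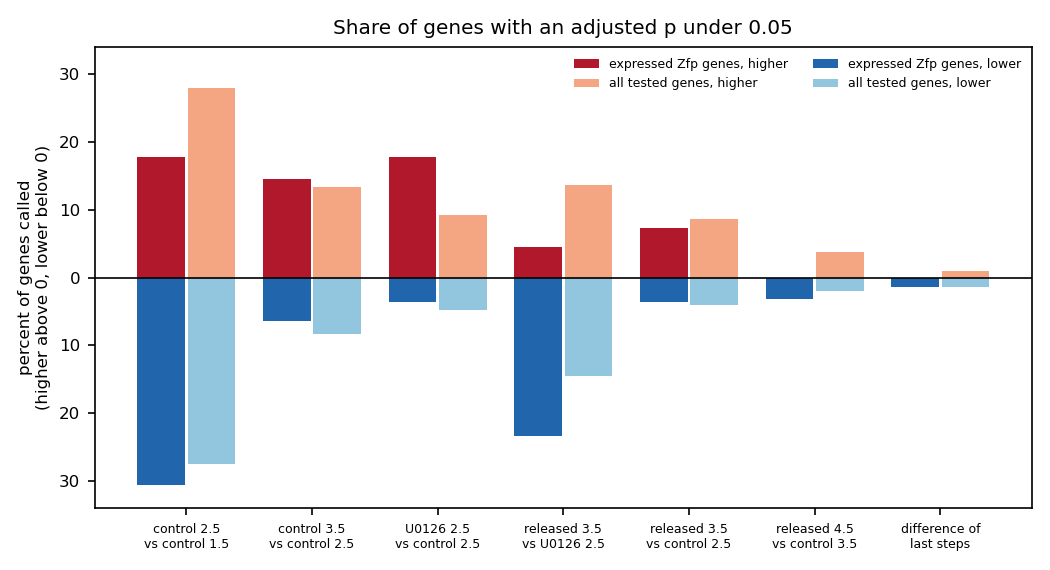
Percent of genes called higher (above 0) or lower (below 0) in 7 comparisons, dark bars for the 219 expressed Zfp genes and light bars for all 9930 tested genes, each at a limma adjusted p under 0.05. The gaps between dark and light bars are wide for the rises of the first control step (17.8% against 28%), for genes higher under U0126 (17.8% against 9.21%) and for both directions after release (4.57% against 13.7% higher, 23.3% against 14.5% lower).

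In embryos arrested by U0126, 39 Zfp genes were higher and 8 lower than in control embryos of the same day. That was 17.8% higher, against 9.21% of all tested genes, and 3.65% lower, against 4.72%. The median difference over the 219 genes was 0.36, against 0.11 over all tested genes, and 65.3% of the Zfp genes had a positive difference, against 57.3%. Both control day 2.5 arrays read under 5 in 17 of the 39 higher genes, where the size of a difference rests on signal near background. The share of higher genes was above the background on both sides of a mean level of 7. Of the 78 Zfp genes with a mean level of at least 7, 13 were higher (16.7%, against 7.47% of tested genes in that range), and of the 141 under it, 26 were (18.4% against 11.1%). With the arrays centred on their medians, the median difference was 0.15 for Zfp genes and −0.09 for all tested genes, and with the replicate number as a block 13 genes were lower instead of 8. The count of higher genes was 18 or 16 when replicate 1 or 2 of control day 2.5 was dropped, and 24 when replicate 1 of U0126 was. The count of lower genes was 1 and 3 without replicates 1 and 2 of control day 2.5, 3 without either control day 3.5 array, 4 without replicate 1 of U0126 and 5 without either released day 3.5 array. Of the 47 calls, 11 higher and 1 lower were kept whichever single array was left out.

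The genes that kept their call were Zfp280c, Zfp819, Zfp719, Zfp60, Zfp623, Zfp639, Zfp28, Zfp760, Zfp263, Zfp61 and Zfp275 among the higher ones and Zfp934 among the lower ones. Several of them are named because of this stability or for the promoters printed here, chosen after their values were seen. Zfp60 and Zfp28 reached a level of 5 on the U0126 arrays alone. For these the filter fixed that they were higher, and their stability is a description. Zfp280c was the most changed. It read 7.39 and 7.03 in U0126-treated embryos, against 3.78 and 4.01 in controls, a difference of 3.32 ± 0.28 (limma adjusted p = 2.68e-04), or at least 2.21 counted from a level of 5. Zfp819, a KRAB protein reported to repress retroelements, read 7.93 and 7.42 against 5.63 and 4.40 (2.66 ± 0.47, adjusted p = 0.00599). Zfp719 read 6.93 and 7.39 against 4.80 and 4.66 (2.43 ± 0.35, adjusted p = 0.00275), at least 2.16 counted from 5. Zfp639 read 9.39 on both U0126 arrays, against 7.44 and 7.25, which was 2.05 ± 0.25 higher (adjusted p = 0.00139). In none of these genes did the arrays of the groups overlap. This held for all 39 higher genes, as for every Zfp gene called between groups, so it sets none of them apart. The share of all tested genes without overlap was not counted. Zfp597 read 7.97 and 8.29 against 6.18 and 5.55 (2.27 ± 0.44, adjusted p = 0.00957), and lost its call without replicate 2 of control day 2.5 (adjusted p = 0.065). Another probe set of the gene passed the level in 10 of the 39 higher genes, and 14 of these 16 probe sets pointed the same way, the exceptions being those of Zfp451.

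Promoters were searched for the core of the ETS site, CCGGAAG on either strand, since some ETS proteins are phosphorylated by ERK. It was present in the 250 bases before the start in 9 of the 35 higher genes with a promoter in the RefSeq table (25.7%), in 34 of 187 Zfp genes (18.2%) and in 17.1% of tested genes, against 7.83% of all genes of the table. Of the other motifs searched, CCAAT was in 51.9% of Zfp genes and 41.6% of tested genes, TATAAA in 8.56% and 7.53%, TGANTCA (the AP-1 site) in 4.81% and 5.20%, TGACGTCA in 2.14% and 3.14%, and TTTCGCGC in 0% and 0.663%. In the higher genes CCAAT was found in 48.6%, TATAAA and TGACGTCA in 2.86% each, and the AP-1 and E2F letters in 0 of 35. The promoters had a median of 13.5 CG pairs and 57.2% G and C in the higher genes, 12 and 55.5% in the Zfp genes and 16 and 60.0% in tested genes. A match is a run of letters and not a shown binding site. The stretches that hold the match in 4 of the higher genes are printed 5′ to 3′ on the gene's strand, from RefSeq (GRCm38.p6), with the match in capitals. They lie at chr16:3872375-3872444 (minus strand) for Zfp597, chr7:27731339-27731408 (plus) for Zfp60, chr7:6383181-6383250 (plus) for Zfp28 and chr16:3744029-3744098 (plus) for Zfp263.
Zfp597: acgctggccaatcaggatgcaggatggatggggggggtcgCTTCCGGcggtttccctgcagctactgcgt
Zfp60: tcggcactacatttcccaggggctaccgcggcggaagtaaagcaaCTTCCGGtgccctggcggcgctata
Zfp28: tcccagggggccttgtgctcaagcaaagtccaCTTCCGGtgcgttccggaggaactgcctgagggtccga
Zfp263: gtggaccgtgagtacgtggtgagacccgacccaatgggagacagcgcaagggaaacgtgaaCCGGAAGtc

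The 39 higher genes had unlike histories in undisturbed embryos, and they are sorted here by where the control arrays lay, as a description chosen after the values were seen. All tested genes were not sorted in this way, so the split cannot be read as particular to Zfp genes. In 13 of the 39 both U0126 arrays lay above all 6 control arrays. They were Zfp819, Zfp719, Zfp60, Zfp28, Zfp319, Zfp263, Zfp61, Zfp503, Zfp770, Zfp281, Zfp275, Zfp711 and Zfp184. Of these, Zfp60, Zfp28 and Zfp184 reached a level of 5 on the U0126 arrays alone and were members through them, so that for these the filter fixed the pattern. Zfp60 read 5.67 and 5.62 under U0126 and between 3.19 and 3.93 on the control arrays, and Zfp28 read 6.29 and 5.79 against 3.42 to 4.13. Zfp263 read 10.19 and 9.57, against 9.16 and 8.86 at control day 1.5, 8.22 and 7.99 at control day 2.5 and 8.36 and 8.19 at control day 3.5. In a further 20 genes the highest control group was day 1.5. Zfp639 read 10.23 and 10.02 there, above its level under U0126, and Zfp623 read 9.21 and 8.87 under U0126, against 9.61 and 9.67 at control day 1.5 and 7.19 and 6.61 at control day 2.5. In 6 genes (Zfp105, Zfp994, Zfp507, Zfp59, Zfp24 and Zfp959) the highest control group was day 3.5.

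**Figure D3:**
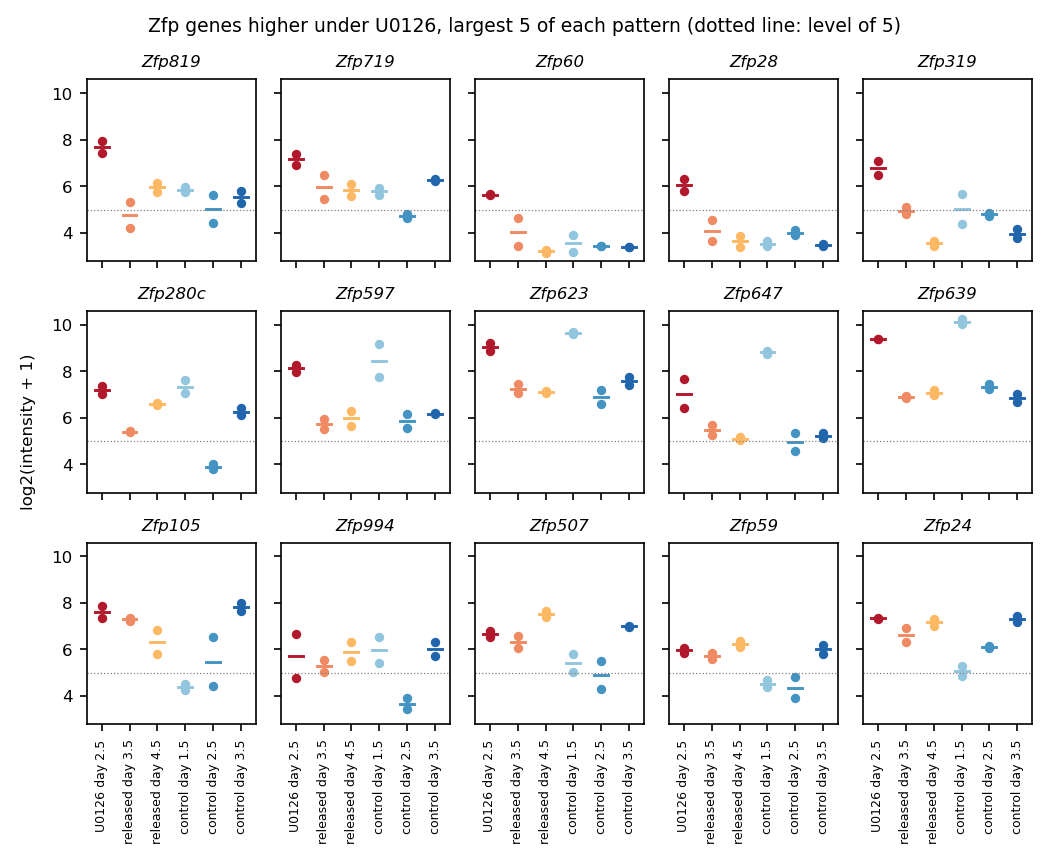
Log2 level of 15 Zfp genes that were higher under U0126, 5 from each pattern of control levels, in the 6 groups (points are arrays, bars are means of 2, and the dotted line is a level of 5). In the top row both U0126 arrays lie above all 6 control arrays, in the middle row control day 1.5 is the highest control, and in the bottom row control day 3.5 is.

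Markers of other stages were read beside these results. The summed intensity of the oocyte genes Gdf9, Bmp15 and Zp3 was 434 and 629 under U0126, against 224 and 334 at control day 2.5, while it was 4265 and 5432 at control day 1.5. None of the 3 passed the test between U0126 and control at day 2.5, and Bmp15 on replicate 1 of U0126 read 4.23, below both control arrays (4.51 and 4.38). Zfp352, a gene of the 2-cell stage, read 8.44 and 8.66 under U0126, against 6.53 and 4.96. The trophectoderm markers summed to 254 and 104, against 1734 and 1004. The part of embryo stage in the differences of the Zfp genes was not tested, since the arrested embryos had 4 cells and the controls 4 to 8.

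The lower genes were fewer. Zfp934 read 4.72 and 5.37 under U0126, against 6.85 and 6.69 in controls (−1.73 ± 0.30, limma adjusted p = 0.00599), and its values at control day 1.5 were 4.68 and 4.81. Zfp280d read 7.38 and 7.18 against 8.86 and 8.67 (−1.48 ± 0.29, adjusted p = 0.00982), a call that was lost without replicate 1 of control day 2.5 (adjusted p = 0.0705) and with the mean of its probe sets (0.0579). Zfp982 and Zfp979, which are neighbours in the genome, read 7.71 and 8.46 against 9.44 and 9.79, and 7.83 and 8.00 against 9.38 and 9.37. Their adjusted p-values of 0.0366 and 0.0415 reached up to 0.183 (without replicate 1 of U0126) and 0.155 (without replicate 1 of control day 2.5), and 5 and 8 of the 12 arrays could each end the call. On a more specific probe set the difference of Zfp982 was −0.45. Zfp995 (−0.94, adjusted p = 0.0441) had a difference of 0.9999 on a probe set that matches fewer transcripts, so that its direction is not settled.

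**Figure D4:**
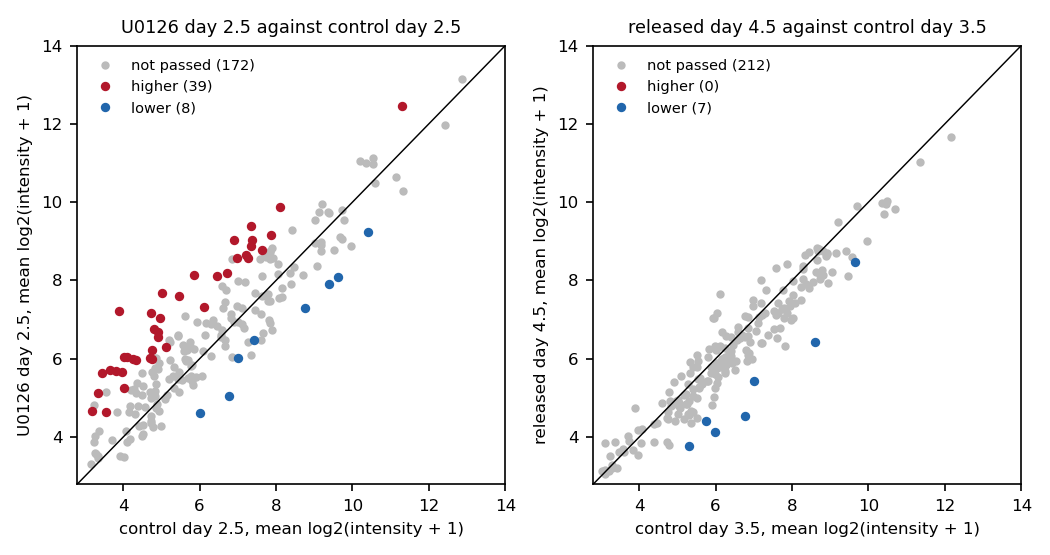
Mean log2 level of each Zfp gene in U0126 day 2.5 (vertical axis) against control day 2.5 embryos (left), and in released day 4.5 against control day 3.5 embryos (right), n = 2 arrays per group, with genes higher in red, lower in blue and the line of equal levels. On the left 39 genes are higher and 8 lower, and on the right 0 are higher and 7 lower.

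In the first day after release, 51 Zfp genes fell and 10 rose at released day 3.5, relative to U0126 day 2.5. The share that fell was 23.3%, against 14.5% of all tested genes, and the share that rose was 4.57%, against 13.7%. The median difference was −0.32 for the Zfp genes and −0.02 for all tested genes. Among genes with a mean level of at least 7, 30.8% fell (24 of 78), against 15.6% of tested genes in that range, and under it 19.1% fell (27 of 141), against 13.2%. With the replicate number as a block, 17 rose. The count of rises was 5 and 4 without replicate 1 or 2 of released day 3.5, and that of falls was 33 and 30. This comparison shares the U0126 arrays with the one at day 2.5, so that a gene read high on them tends to differ in both, and the 2 are not independent.

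Zfp644 had the largest fall, to 7.84 and 7.40 in released embryos, against 10.55 and 11.54 under U0126 (−3.42 ± 0.39, limma adjusted p = 2.86e-04). Its level under U0126 lay above both control day 2.5 arrays, 9.91 and 10.47, but this difference did not pass (0.85, adjusted p = 0.19). Zfp819 fell to 5.34 and 4.19, against 7.93 and 7.42 (−2.91 ± 0.47, adjusted p = 0.00151). Zfp639 fell to 6.93 and 6.86, against 9.39 on both arrays (−2.49 ± 0.25, adjusted p = 1.20e-04), and Zfp770 fell to 6.37 and 6.83, against 9.04 and 9.004 (−2.42 ± 0.41, adjusted p = 0.00183). The groups did not overlap in any of these 4, as in all 51 genes that fell and as the naming rule required. This sets none of them apart, and the share of all tested genes without overlap was not counted. The calls of these 4 were kept without any single array. Among the rises, Zfp931 read 5.65 and 5.77 against 3.42 and 3.52 (2.24 ± 0.44, adjusted p = 0.00399), or at least 0.71 counted from 5. Zfp850 read 5.61 and 5.64 against 4.03 on both arrays (1.59 ± 0.25, adjusted p = 0.00131), or at least 0.62 counted from 5. It reached 5 on the released day 3.5 and control day 3.5 arrays alone, so that the filter favoured this rise. Zfp995 rose by 1.54 (adjusted p = 0.00248) on a probe set that can match several transcripts, and by 0.44 (adjusted p = 0.556) on another. Zfp516 rose by 1.21 (adjusted p = 0.0394) from readings near background, and its call was lost without replicate 1 of released day 3.5 (adjusted p = 0.227), either U0126 array (0.103 for both) or either control day 1.5 array (0.0514).

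Against control embryos of day 2.5, which had 4 to 8 cells, released day 3.5 embryos had 16 Zfp genes higher and 8 lower. Those were 7.31% and 3.65%, against 8.61% and 4.05% of all tested genes, so that both shares were near the background. With the replicate number as a block 17 were lower. The higher count was 10 and 3 without replicate 1 or 2 of control day 2.5 and 10 and 2 without replicate 1 or 2 of released day 3.5, and the lower count was 1, 2, 5 and 2 without the same arrays. The fall of Zfp644 was the most stable of the named differences. It read 7.84 and 7.40 against 9.91 and 10.47 (−2.57 ± 0.39, limma adjusted p = 0.00414), with a highest adjusted p of 0.0419 without any one array. Zfp931 was at least 0.71 higher counted from a level of 5, since both control arrays lay under it (fitted difference 2.37, adjusted p = 0.00848), a call that was lost without replicate 2 of control day 2.5 (0.0571) or replicate 2 of released day 3.5 (0.0615). Zfp560 read 9.22 and 9.78 against 7.51 and 6.21 (adjusted p = 0.0121), and was lost without replicate 2 of control day 2.5 (0.0913) or replicate 2 of released day 3.5 (0.0912) and with the mean of its probe sets (0.0847). Markers of stage also differed between these groups. Krt8, Krt18 and Cdx2 were 3.59, 3.68 and 1.77 higher in released embryos and Zfp352 was 3.88 higher, while none of the 3 oocyte genes passed. The part of stage in this comparison was not tested.

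At the morula and blastocyst stage, 0 Zfp genes were higher and 7 lower in released day 4.5 than in control day 3.5 embryos. Of all tested genes, 3.85% were higher and 2.03% lower, and the Zfp genes gave 0% and 3.20%. At an unadjusted p under 0.05 in limma, 4 Zfp genes were higher and 30 lower. All tested genes were not counted at that threshold, so these counts have no background and are descriptions. The median difference of the Zfp genes was −0.23, against −0.03 for all tested genes, and 27.9% of the Zfp genes had a positive difference, against 47.4%. With the replicate number as a block 13 were lower. None of the 7 calls was kept whichever array was left out. The count of lower genes was 3 and 0 without replicate 1 or 2 of control day 3.5, and 0 and 2 without replicate 1 or 2 of released day 4.5. A single gene was higher without replicate 1 of control day 3.5 and without either U0126 array.

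Zfp239 read 4.49 and 4.60 in released day 4.5 embryos, against 6.49 and 7.07 in control day 3.5 embryos, a difference of −2.23 ± 0.35 (limma adjusted p = 0.00592), or at least 1.78 counted from 5. Its call was lost without replicate 2 of control day 3.5 (adjusted p = 0.0808) and replicate 1 of released day 4.5 (0.0506). Zfp820 read 6.03 and 6.81 against 8.38 and 8.85 (−2.19 ± 0.40, adjusted p = 0.0120), and was lost without the same arrays (0.140 and 0.0973). In both genes the released arrays lay below both control arrays, as in all 7 lower genes. This lack of overlap sets neither apart, and the share of all tested genes without overlap was not counted. Zfp78, Zfp583, Zfp770, Zfp850 and Zfp593 were lower by between 1.17 and 1.84 on the log2 scale, and their adjusted p-values lay between 0.0117 and 0.0493. Zfp583 reached a level of 5 on the control day 3.5 arrays alone, so the filter fixed that it differs there, and its gap is a description. Zfp850 reached 5 on the control day 3.5 and released day 3.5 arrays alone, so the filter favoured its difference as well. Zfp78, Zfp583 and Zfp850 lay under 5 on both released arrays, and counted from 5 they were lower by at least 0.98, 0.31 and 0.74. Each of these calls was lost without 3 or more arrays taken singly, with adjusted p-values up to 0.366 for Zfp770 without replicate 2 of control day 3.5.

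The step between the last 2 stages was compared between released and control embryos as an interaction. 0 Zfp genes had a higher and 3 a lower step in released embryos (0% and 1.37%), against 1.02% and 1.32% of all tested genes. At an unadjusted p under 0.05 in limma 4 Zfp genes were higher and 31 lower, a threshold at which all tested genes were not counted. With the replicate number as a block there were 1 higher and 11 lower Zfp genes at the adjusted threshold. Without single arrays the lower count was 1 to 6, with 6 without either U0126 array and 1 without replicate 2 of control day 3.5 or any of the 4 released arrays. Zfp850 had a step of −1.21 between released day 3.5 and day 4.5, against 1.25 between control day 2.5 and day 3.5, a difference of −2.47 ± 0.35 (limma adjusted p = 0.0106). Its arrays read 4.30 and 4.52 at released day 4.5 and 5.61 and 5.64 at released day 3.5, against 5.87 and 5.61 at control day 3.5 and 4.66 and 4.31 at control day 2.5. Counted from 5, the released step was a fall of at least 0.62 and the control step a rise of at least 0.74, so that the size of −2.47 rests on signal near background. Zfp850 reached 5 on the released day 3.5 and control day 3.5 arrays alone and was a member through them. The filter thus favoured a lower step in released embryos, and this result is a description. The call of Zfp850 was kept without any single array, while those of Zfp760 and Zfp275 were lost without several.

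Genes with a known role were followed by list. Of 8 entries for repressors of retroelements and guardians of imprints, 7 passed the level filter and Zfp708 did not. At control day 2.5, 2 of the 7 rose and 1 fell relative to control day 1.5, where 28% and 27.4% of all tested genes did. Zfp57, which keeps the methylation of imprinted loci after fertilization, fell to 4.00 and 3.82, against 5.61 and 5.003 (−1.39 ± 0.27, limma adjusted p = 0.00131), a fall of at least 0.30 counted from 5 in a gene that passed the filter through control day 1.5 alone, and read between 3.35 and 3.75 on the 8 later or treated arrays. Zfp445, which shares this work, stayed between 9.44 and 11.03 on all 12 arrays. It fell by 0.99 after release (adjusted p = 0.0160), a call lost without replicate 1 of U0126 (0.0540), replicate 1 of released day 3.5 (0.0929) or replicate 2 of released day 3.5 (0.05003). Zfp809, which silences proviruses of leukaemia virus type, rose with Zfp568 in that first control step, to 9.33 and 9.04, against 6.91 and 7.20 (2.13 ± 0.27, adjusted p = 6.98e-05). Under U0126 the list gave 1 higher gene, Zfp819, and 1 lower (9.21% and 4.72% of all tested genes). The lower one was Zfp932, which represses endogenous retroviruses, with 8.81 and 9.67 against 10.43 and 10.41 (−1.17, adjusted p = 0.0382). Leaving out replicate 1 of U0126 took its adjusted p to 0.204, and 6 other arrays could each end the call, among them replicate 1 of control day 2.5 (0.151) and replicate 2 (0.132). Zfp961 did not pass in any of the comparisons, with values from 6.56 to 8.95, although with the replicate number as a block it was lower under U0126 (−1.16, adjusted p = 0.0105).

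Of 12 factors of pluripotent and stem cells, 10 were among the Zfp genes of the array and 7 passed the filter, and under U0126 2 were higher and 0 lower, where 9.21% and 4.72% of all tested genes were. Zfp281, which restrains Nanog and is needed to leave the naive state, read 8.89 on both U0126 arrays, against 7.36 and 7.34 in controls (1.54 ± 0.32, limma adjusted p = 0.0121). Its call was lost without replicate 1 of control day 2.5 (0.0699) or replicate 2 (0.0616). Zfp322a, which sustains embryonic stem cells, read 8.95 and 9.36 against 7.97 and 7.79 (1.27 ± 0.25, adjusted p = 0.00991), was lost without the same arrays (0.0501 and 0.0633), and fell again after release (−1.25, adjusted p = 0.00475). The other 5 did not pass under U0126, and all had negative differences. These were −0.67 for Zfp217, −0.59 for Zfp148, −0.38 for Zfp219 and −0.04 for Zfp277, and −0.45 for Zfp296 (adjusted p = 0.459). The median difference of the 7 was −0.38, against 0.36 for all the Zfp genes described and 0.11 for all tested genes. Zfp296 was followed over the other groups. Its lowest values were those of released day 4.5, 9.99 on both arrays, and control day 3.5.

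Of the 12 tested partners of chromatin complexes, 1 rose and 4 fell in the first control step (28% and 27.4% of all tested genes) and 1 rose and 3 fell in the second (13.4% and 8.28%). At released day 3.5, 7 of the 12 fell and 1 rose relative to U0126 day 2.5, where 14.5% and 13.7% of all tested genes did, and 1 fell relative to control day 2.5 (4.05%). Their median difference at release was −1.12, against −0.32 for all the Zfp genes described and −0.02 for all tested genes. The steps were not tested against each other. The falls at release were those of Zfp644, Zfp518a and Zfp592, of Zfp335, Zfp653 and Zfp410, and of Zfp131, and the rise was that of Zfp516. Zfp592, which belongs to a complex with Zmynd8, read 7.61 and 6.66 in released embryos, against 8.64 and 8.51 under U0126 (−1.44, limma adjusted p = 0.0122), and its call was lost without replicate 2 of released day 3.5 (0.107). Zfp410, an activator of the remodeller gene Chd4, read 8.75 and 8.13 against 9.65 and 9.45 (−1.11, adjusted p = 0.0124), and was lost without replicate 1 of U0126 (0.0530) or replicate 2 of released day 3.5 (0.110). The fall of Zfp644 alone was kept without any single array. Under U0126 1 of the 12 was higher (9.21% of all tested genes), which was Zfp592 with 8.64 and 8.51 against 7.13 and 6.84 in controls (1.58 ± 0.35, adjusted p = 0.0156). That call was lost without replicate 1 of control day 2.5 (0.0631), replicate 2 of control day 2.5 (0.0929) or replicate 1 of U0126 (0.0664).

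Of the 13 factors of RNA, ribosomes, SUMO and ubiquitin, 2 rose and 5 fell in the first control step, where 28% and 27.4% of all tested genes did. Under U0126 3 were higher and 1 lower, where 9.21% and 4.72% of all tested genes were. Zfp451, a SUMO ligase, read 6.53 and 6.92 at control day 2.5, against 9.48 and 9.88 at control day 1.5 (−2.95 ± 0.38, limma adjusted p = 8.38e-05). Averaged with its other probe sets, this difference was −0.29 (adjusted p = 0.302). Zfp593, whose yeast counterpart takes part in export of the large ribosomal subunit, read 8.90 and 9.23 against 6.99 and 6.32 (2.41 ± 0.29, adjusted p = 5.02e-05), though on a more specific probe set the adjusted p was 0.0658. Under U0126 Zfp451, Zfp346 and Zfp830 were higher and Zfp385a lower. Zfp830, which dividing cells of the early mouse embryo need, read 8.73 and 8.82 under U0126, against 7.55 and 7.71 (1.14 ± 0.26, adjusted p = 0.0174). The 4 calls had adjusted p-values of up to 0.171, 0.148, 0.107 and 0.0812 for Zfp451, Zfp346, Zfp830 and Zfp385a when replicate 1 of control day 2.5 was left out, and those of the first 3 were also lost without 2 or more further arrays. With the mean of all their probe sets Zfp451, Zfp346 and Zfp830 had adjusted p-values of 0.499, 0.202 and 0.0767. Zfp207, a spindle protein that protects Bub3, read 11.17 and 11.46 at control day 2.5, against 9.38 and 9.58 at control day 1.5 (1.83 ± 0.35, adjusted p = 0.00111), but averaged over its probe sets the difference was −0.41 (adjusted p = 0.267), so that its direction is not settled.

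**Figure D5:**
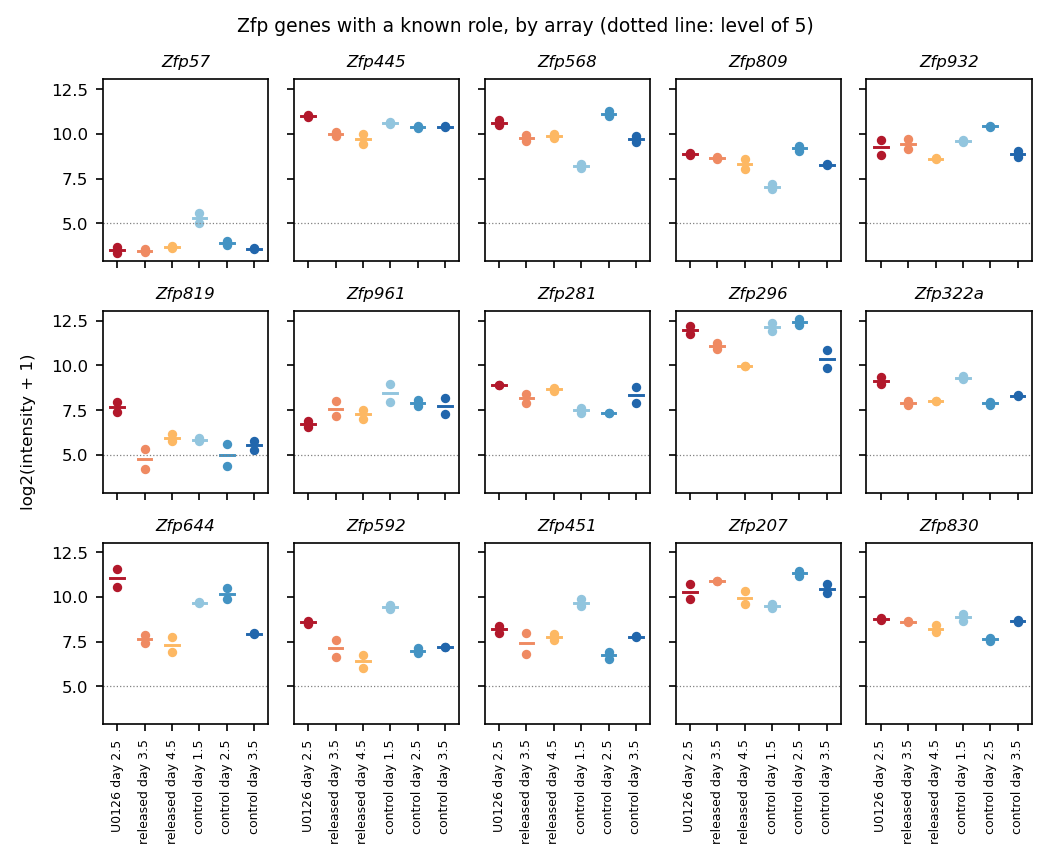
Log2 level of 15 Zfp genes with a known role in the 6 groups (points are arrays, bars are means of 2, and the dotted line is a level of 5). Zfp57 reaches 5 at control day 1.5 and nowhere else, Zfp819 is highest under U0126, and Zfp644 reads 7.84 and 7.40 at released day 3.5, against 10.55 and 11.54 under U0126.

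The machinery that KRAB proteins recruit was measured on the same arrays. Of 32 genes listed, 26 passed the filter, of which 4 rose and 8 fell at control day 2.5 relative to control day 1.5, against 28% and 27.4% of all tested genes, so that the falls were near the background. Trim28, the corepressor itself, was among the rises, with 12.27 and 12.16 at control day 2.5, against 10.88 and 10.53 at control day 1.5 (1.51 ± 0.25, limma adjusted p = 4.09e-04). Under U0126 it read 11.73 and 11.67, and its difference from control day 2.5 did not pass (−0.52, adjusted p = 0.205). Under U0126 4 of the 26 were higher and 2 lower, against 9.21% and 4.72% of all tested genes. The higher ones were Uhrf1 and Dnmt1, which maintain DNA methylation, with 2.34 and 1.66, and Mphosph8 and Suv39h2, of the heterochromatin machinery. Mphosph8 was 1.39 higher, and Suv39h2 read 5.33 and 6.03 against 4.00 and 4.63, where both control arrays lay under 5. The lower ones were Dnmt3b (−1.74), a methyltransferase of new sites, and its cofactor Dnmt3l (−1.17).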

How the data were processed

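The files held a single table of the authors' deposited intensity values, linear and per probe set, for 45101 probe sets on 12 Affymetrix mouse whole-genome arrays. GCRMA is named in the submitters' processing notes and GCOS 1.2 and GeneSpring 7.3 in the series' design text, whose further steps are not given in the sources used for this work, which leaves the absolute unit arbitrary. Labelled RNA was made by 2-cycle amplification, per the labels' protocols. Median intensities were 10.8 to 11.5 per array, and the number of arrays limits the precision.

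Values were taken as log2(intensity + 1), so each log2 difference refers to that scale and understates the change of dim genes. The platform annotation gave 34958 probe sets 1 symbol, 932 several and 9211 none, and 27 Zfp probe sets with several symbols were not used. All 219 genes had their ID in the RefSeq gene table, with 0 changed symbols, and 117 had several probe sets. Of their probe sets, 11 ended in x_at and 12 in s_at, which can match several transcripts. All 9930 genes entered 1 fit in limma 3.58.1 (R 4.3.3; lmFit, contrasts.fit, eBayes) with a mean for each group, 6 residual and 4.51 prior degrees of freedom. The fitting was tested on simulated data. With 2 arrays a group, an exact 2-sided permutation test reaches p = 0.333 at best, and none was used.

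Genes were drawn for naming by a rule. It took the 4 largest rises and falls per comparison among genes that passed with no overlap of arrays. It also took every gene of the role lists, and 3 genes on each side of the level. Not all genes that the rule drew are described here, and some genes outside it are. All Zfp genes called between groups had arrays that did not overlap, so a lack of overlap sets no named gene apart. The share of all tested genes without overlap was not counted. The members, the lists and the rule were chosen with earlier results of these data known. A split by KRAB domain and number of fingers, which was planned, needs protein sequences and was not made.

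The replicate numbers of the titles may pair the samples. The deviations of replicate 1 and 2 from their group mean correlated between all 15 pairs of groups, with r from 0.125 to 0.417. The main fit nevertheless held no block, so the p-values given without mention of a block leave this pairing out. With the block, 24 values of single named genes gained a call and 0 lost one. The fit with the replicate number as a block is given where it moved a count by more than 1.5 times. Other alternatives were a pseudocount of 16, no level filter, median centring, the mean of all probe sets, leaving out x_at and s_at probe sets, an intensity trend, and leaving out each array.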

Additional observations from a re-analysis of the deposited data

Results flagged for a closer look

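A test of the difference between released and control embryos in the step to the last stage passed for 3 Zfp genes. In Zfp850 the step was −2.47 log2 units lower in released embryos (limma adjusted p = 0.0106), with a released step of −1.21 and a control step of 1.25. In Zfp760 the difference was −2.30 (adjusted p = 0.0201), with a released step of −0.17 and a control step of 2.13. It was lost without any of 6 arrays taken singly, with adjusted p-values of up to 0.0789 (without released day 4.5 replicate 2). In Zfp275 it was −1.58 (adjusted p = 0.0497), with steps of −0.70 and 0.88, and was lost without any of 10 arrays taken singly. The steps compare day 3.5 to day 4.5 with day 2.5 to day 3.5, so that age and release cannot be told apart. In all 3 genes both control day 2.5 arrays lay under a level of 5, so that the sizes rest on signal near background. Zfp850 reached 5 on the released day 3.5 and control day 3.5 arrays alone, so that the filter favoured its lower step.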

How the results depend on the processing

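With the replicate number as a block, 24 Zfp genes were lower in the second control step instead of 14, 13 lower under U0126 instead of 8, 17 higher after release instead of 10, 17 lower at released day 3.5 against control day 2.5 instead of 8 and 13 lower at released day 4.5 against control day 3.5 instead of 7. For the difference of the last steps the block gave 1 higher and 11 lower genes instead of 0 and 3, and it moved no other count by more than 1.5 times. Median centring gave 17 higher and 25 lower genes in the second control step. Lower genes under U0126 numbered 5 with the mean of all probe sets, 5 without x_at and s_at probe sets and 5 with no level filter. Without that filter 9 genes were higher at released day 3.5 than at control day 2.5. A pseudocount of 16 gave 1 higher and 6 lower genes for the difference of the last steps, and median centring and the intensity trend gave 1 higher each. The cause of these shifts was not tested. Leaving out each array in turn gave 30 to 43 higher and 54 to 67 lower genes in the first control step, 7 to 34 and 5 to 16 in the second, 16 to 37 and 1 to 8 under U0126, 4 to 9 and 30 to 48 after release, 2 to 20 and 1 to 10 at released day 3.5 against control day 2.5, 0 to 1 and 0 to 7 at released day 4.5 against control day 3.5, and 0 and 1 to 6 for the difference of the last steps. Among the differences of named genes, the sign turned for 4 genes when probe sets were averaged or x_at and s_at probe sets left out. With the mean of all probe sets, Zfp106 turned in the first control step (1.33) and after release (0.0499). Zfp207 turned in the first control step (−0.41) and Zfp995 under U0126 (0.0279). Without x_at and s_at probe sets, Zfp995 turned under U0126 (0.9999) and Zfp593 after release (−0.99). Single other probe sets past the level disagreed in more genes. In the first control step 5 of 20 were opposite for genes that rose and 7 of 26 for genes that fell. After release 1 of 3 and 4 of 33 were opposite, and in the second control step 0 of 7 and 0 of 6. Of 7108 values of single genes under 19 alternatives, 6513 kept direction and side of the threshold, 496 lost a call, 93 gained one and 6 turned. Of 164 calls, 99 were lost without at least 1 array, so 2 arrays a group limit what single genes can show, as does signal near background for genes under a level of 5.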

Other observations

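Many Zfp genes lie in clusters. Of the 219, 218 were found among protein-coding genes of the RefSeq table, 77 of them directly beside another of these genes, and 16 runs of at least 3 with at most 3 other genes between neighbours held 80. In the largest run, of 16 genes from Zfp677 to Zfp946, 9 fell and 1 rose at control day 2.5 relative to control day 1.5, with differences from −4.13 to 2.32. All the Zfp genes described gave 30.6% lower and 17.8% higher in that step and all tested genes 27.4% and 28%. In the same run 2 were higher and 1 lower under U0126, from −1.25 to 2.05, where all the Zfp genes gave 17.8% and 3.65% and all tested genes 9.21% and 4.72%. A run of 9 around Zfp568 (Zfp84 to Zfp566) gave 6 falls and 1 rise, the rise being that of Zfp568 (2.92), and under U0126 3 were higher and 0 lower. Both runs thus held genes that went opposite ways in the first control step, though most of those called fell, and whether neighbours moved together was not tested. The short run of Zfp991, Zfp982 and Zfp979 held 2 of the 8 genes lower under U0126, with differences between −1.53 and −0.54, and probes can be shared among such similar genes. The runs were looked at after the values were seen and no test was made of them.

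Zfp541, a testis gene of meiosis, reached a level of 5 on the control day 1.5 arrays alone, which fixed its pattern through the filter. It read 6.59 and 6.02 at control day 1.5, against 3.37 and 3.23 at control day 2.5, and between 2.98 and 3.61 on the 8 later or treated arrays.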
